A study of Mus musculus with 13 samples.

Results

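The comparison described here asked whether the transcriptome of perivascular fat differed between mice given splenocytes from diabetic Nlrp3 knockout donors (NTS-R, 3 libraries) and mice given splenocytes from diabetic donors with intact Nlrp3 (TS-R, 4 libraries). It covered 17270 of the 34013 genes counted, which were all genes that passed a filter on low counts, in 7 of the 13 libraries of the series. The libraries were made from the RNA of whole perivascular adipose tissue. The remaining 6 libraries came from recipients of splenocytes of non-diabetic donors, wild-type (WTS-R, 3 libraries) or Nlrp3 knockout (NS-R, 3 libraries). They entered the same fit and served for the test of whether the Nlrp3 difference depended on donor diabetes. Per the labels, every library had a C57BL/6 strain background, TS-R and WTS-R carried the genotype WT, and NTS-R and NS-R the genotype Nlrp3 KO. The labels do not say whether that genotype is the donor's or the recipient's, and groups follow the sample titles. How diabetes was produced, the number of cells given, the time after transfer, and the age, sex and batch of the animals are not stated in the sources used here. Nothing in the labels says that libraries of a group came from separate animals, so p-values measure only the spread between these libraries. That spread may be partly technical, although TS-R replicate 3 and NS-R replicate 3 differed from the rest of their groups in sex-linked transcripts.

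Perivascular fat surrounds blood vessels and holds brown-like adipocytes together with vessel wall cells, sympathetic nerve endings, connective tissue and resident leukocytes. Small lymph nodes can lie embedded in it. NLRP3 is a cytosolic sensor of myeloid cells. Once triggered it binds the adaptor PYCARD (ASC), which recruits caspase-1, and caspase-1 then cleaves the precursors of interleukin-1 beta and interleukin-18 and the pore protein gasdermin D. Interleukin-1 beta and tumour necrosis factor act on stromal and endothelial cells and help to recruit neutrophils. The activation of NLRP3 is a step between proteins, so transcript levels show only the abundance of its components and of genes further along the pathway.

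The 7 libraries differed in tissue content, also within a group, and this has to be known before the values are read. All held adipocyte transcripts: Adipoq, the adiponectin gene of adipocytes, lay between 363 and 1810 CPM (counts scaled to library size with edgeR's TMM factors), with the lowest value in TS-R replicate 3. That library stood apart on the first principal component, which held 64.0% of the variance among the 7. It was also the single female library among them, with Xist, the transcript that coats the inactive X chromosome, at 667 CPM and at 0.403 CPM or less in the other 6. Glycam1, a product of high endothelial venules in lymph nodes, was at 0.0284, 66.9, 965 and 8.11 CPM in TS-R replicates 1 to 4 and at 0.116, 0 and 0.0806 CPM in NTS-R replicates 1 to 3. The values of TS-R replicate 1 and of the 3 NTS-R libraries were under what 3 counts amount to in those libraries (0.0853 to 0.242 CPM). Slc6a2, the noradrenaline transporter of sympathetic neurons, was at 60.6, 32.0, 28.1 and 0.975 CPM across the TS-R libraries and between 1.45 and 1.60 CPM in NTS-R. Myh4, a fast skeletal muscle myosin, reached 2730 CPM in TS-R replicate 1 and at most 137 CPM elsewhere. Hence lymph node transcripts marked TS-R replicates 2, 3 and 4, and nerve transcripts TS-R replicates 1, 2 and 3. Skeletal muscle transcripts were highest in TS-R replicate 1 but not confined to it. Summed over 15 genes they came to 16100, 1430, 83.2 and 2570 CPM across the TS-R libraries, against 2900, 3620 and 1100 CPM in NTS-R. In bulk tissue, fewer cells of a type and less RNA per cell cannot be told apart. List medians are therefore given with and without TS-R replicate 3, and the genes the results turn on are shown in every library.

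**Figure D1:**
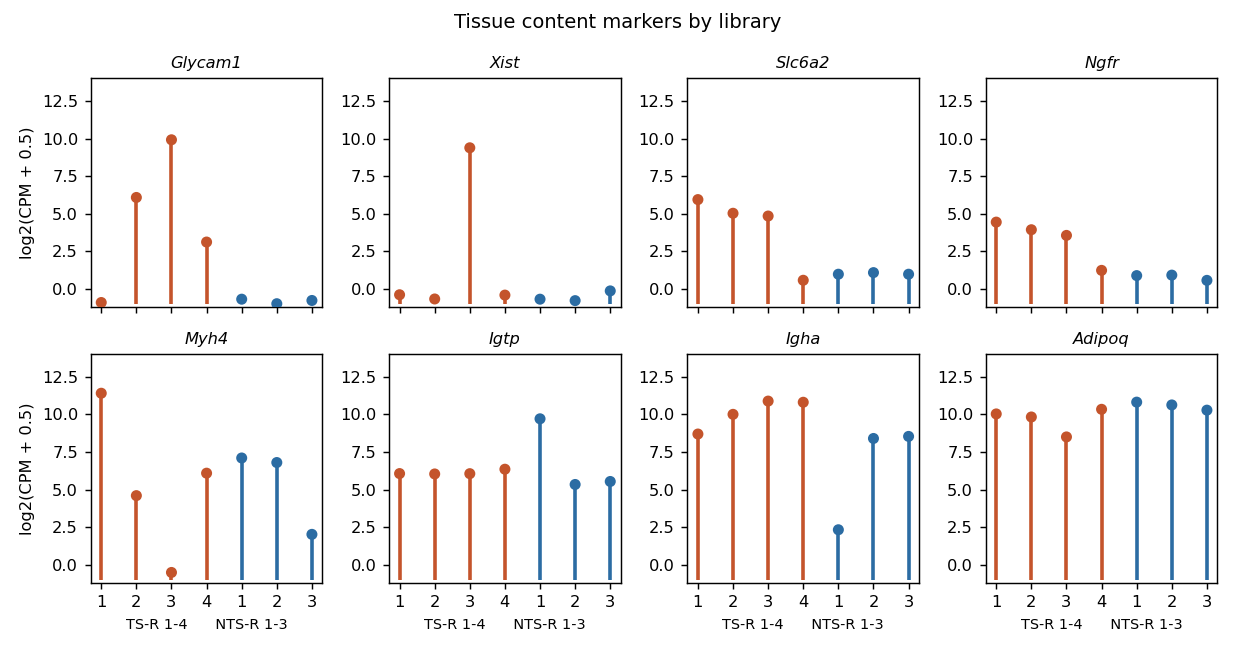
Level of 8 marker genes as log2(CPM + 0.5) in the 4 TS-R libraries (orange) and the 3 NTS-R libraries (blue), with stems drawn from the value of 0 CPM. Glycam1 peaks in TS-R replicate 3, Slc6a2 and Ngfr are high in TS-R replicates 1 to 3 and low in replicate 4, Myh4 peaks in TS-R replicate 1, and Igtp in NTS-R replicate 1.

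Across all genes, more lay lower in NTS-R than higher, but no single gene passed the test. By edgeR's quasi-likelihood test 0 of 17270 genes reached a Benjamini-Hochberg FDR of 0.05 in either direction (0% called), and the lowest FDR was 0.105. An unadjusted p under 0.05 was reached by 2428 genes with lower values in NTS-R (14.1%) and by 966 with higher ones (5.59%). Fitted values were negative for 52.6% and positive for 47.4% of all genes, the background for the counts of negative and positive members below. Those counts are partly fixed in advance. The low-count filter could be passed through TS-R alone, and members that passed in that way were bound to have negative values. Other tools made calls on the same counts: DESeq2 called 1233 genes lower (7.14%) and 196 higher (1.13%), and limma's voomWithQualityWeights 1258 lower (7.28%) and 380 higher (2.2%). Leaving out TS-R replicate 1, edgeR called 981 genes lower and 37 higher, and leaving out TS-R replicate 4 it called 720 and 160. Without TS-R replicate 3 edgeR again called 0, with 1425 genes lower (8.44%) and 914 higher (5.42%) at an unadjusted p under 0.05, while DESeq2 called 459 lower and 77 higher and voomWithQualityWeights 2 lower and 0 higher.

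A count that uses no test also gave more lower than higher genes, but with TMM factors by a smaller margin. The 3 NTS-R libraries lay below all 4 TS-R libraries for 1179 genes (6.83%) and above all 4 for 985 genes (5.7%). This split depended on scaling. With library totals in place of TMM factors it was 2920 lower and 185 higher, so that 94.0% of the non-overlapping genes were lower against 54.5% with TMM, and the median log2 fold change of all genes was -0.33 in place of -0.03. Mitochondrially encoded genes took 6.11, 22.7, 15.3 and 22.5% of counts in TS-R and 23.5, 29.0 and 33.4% in NTS-R; their part in this shift was not tested. Wide gaps were nearly all on the lower side. The nearest libraries of the groups were at least 2-fold apart, on the log2(CPM + 0.5) scale, for 22 genes lower in NTS-R (0.127%) and for 2 higher (0.0116%), Mc5r and Dok7, the latter named here after its values were seen. At least a 4-fold gap was found for 2 lower genes, S100a9 and Retnlg, and for 0 higher ones. Retnlg rested on few counts in NTS-R.

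**Figure D2:**
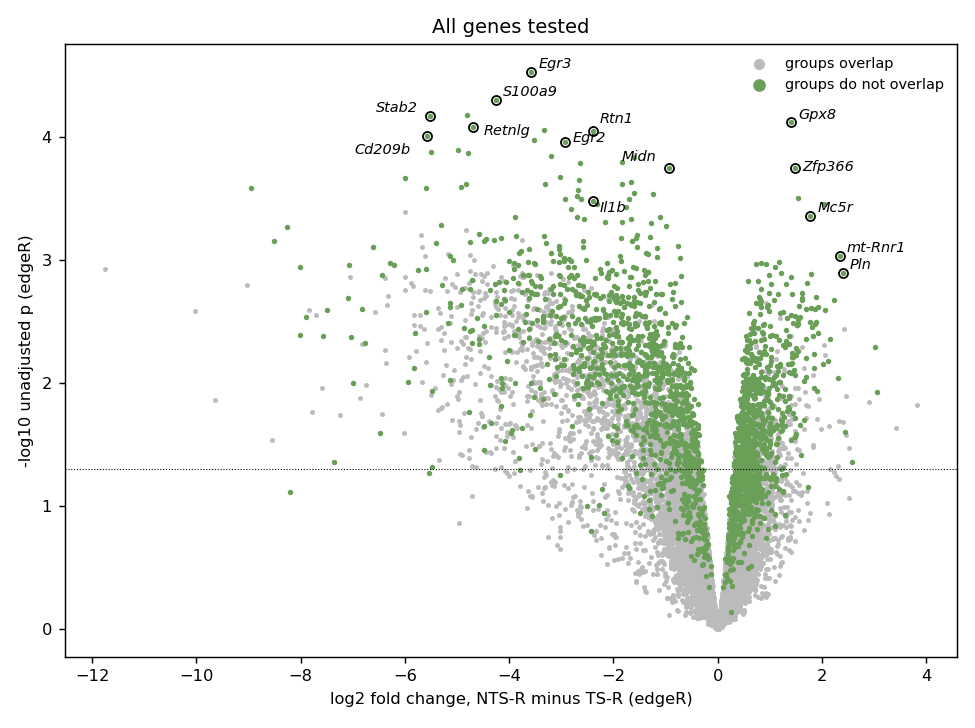
Each point is 1 of the 17270 genes, with edgeR's log2 fold change (NTS-R minus TS-R) on the horizontal axis and -log10 of the unadjusted p on the vertical axis; the dotted line is an unadjusted p of 0.05 and green points are genes whose groups do not overlap. Among the labelled genes, those with the smallest p lie on the left (Egr3, S100a9, Stab2), and Gpx8 and Zfp366 lead on the right.

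The widest gaps between the groups lay in neutrophil genes. S100a9, a subunit of the calprotectin alarmin of neutrophils, was at 36.3, 115, 131 and 23.8 CPM across the TS-R libraries, against 4.34, 4.42 and 3.23 CPM in NTS-R. The lowest TS-R library was 4.94 times above the highest NTS-R library on the scale of CPM + 0.5, and the fitted log2 fold change was -4.25 (SE 0.71, edgeR FDR 0.105, DESeq2 adjusted p 9.1e-09). Its partner S100a8 was at 14.6, 48.9, 45.8 and 7.32 CPM against 1.68, 2.75 and 1.45 CPM, with a fold change of -3.89 on the log2 scale (SE 0.83, edgeR FDR 0.105). For both genes TS-R replicates 2 and 3 were highest, and replicate 4 was lowest but still above every NTS-R library. Without TS-R replicate 3 the S100a9 value was -3.83 and that of S100a8 -3.56. WTS-R and NS-R, the groups with non-diabetic donors, had S100a9 between 1.29 and 6.00 CPM, so that NTS-R lay within their range.

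The granule and secreted products of neutrophils followed. Retnlg, a resistin-like peptide gene of neutrophils, was at 4.01, 10.1, 14.8 and 4.88 CPM across the TS-R libraries, against 0.405, 0.305 and 0.242 CPM in NTS-R, and the log2 fold change was -4.69 (SE 0.82, edgeR FDR 0.105). Camp, which encodes the antimicrobial peptide cathelicidin, was at 1.39, 11.6, 12.8 and 2.80 CPM against 0.173, 0.0763 and 0 CPM. Ltf, the iron-binding lactoferrin of secondary granules, was at 9.01, 25.6, 22.2 and 2.32 CPM against 0.231, 0.305 and 0.161 CPM. In NTS-R replicates 1 to 3, 3 counts amount to 0.173, 0.229 and 0.242 CPM. The NTS-R values of Retnlg, Camp and Ltf therefore rest on few counts, and the size of their fold changes is uncertain. The groups did not overlap for any of these, nor for Mmp8, the neutrophil collagenase, whose log2 fold change was -3.81 (SE 0.88), and -3.05 without TS-R replicate 3. Ltf is also made by airway glands, and it reached 428 and 761 CPM in NS-R replicates 1 and 2, the libraries in which the club cell gene Scgb1a1 was at 2250 and 4690 CPM; in the 7 libraries compared here Scgb1a1 was at 0.231 CPM or less. Of 20 genes on the neutrophil list 15 were tested, and 14 of these had negative values. Among them 12 reached an unadjusted p under 0.05, against 14.1% of all genes, and 9 had non-overlapping groups, against 6.83%. Some members passed the filter on low counts only through TS-R, so these counts are partly fixed by it. Mmp8, for example, was at 0.671 to 6.78 CPM in TS-R and at most 0.403 CPM in the other groups. The list median was -3.81, and -3.05 without TS-R replicate 3, against -0.03 and 0.01 over all genes. The summed level of the tested members ran from 91.3 to 371 CPM in TS-R and from 28.5 to 55.4 CPM in NTS-R. TS-R replicate 1, which held no more lymph node stroma transcript than NTS-R (124 CPM summed over 15 genes, against 156 to 200 CPM), had 108 CPM. That library also had the most transcript of red blood cells. Summed over 5 erythroid genes it was 397, 115, 122 and 43.8 CPM across the TS-R libraries, against 78.1, 111 and 32.4 CPM in NTS-R. The parts of lymph node tissue and of blood in the neutrophil values were not tested.

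S100a8 and S100a9 are neighbours and are usually expressed together, so the 250 bases before each start are shown as RefSeq gives them for GRCm38.p6, on the gene's own strand, chr3:90668821-90669070 (plus strand) and chr3:90695722-90695971 (minus strand). The build of the counted genes is not given in the sources used here. Capitals mark a TATA element spelled TATAAA, searched on both strands.
S100a8: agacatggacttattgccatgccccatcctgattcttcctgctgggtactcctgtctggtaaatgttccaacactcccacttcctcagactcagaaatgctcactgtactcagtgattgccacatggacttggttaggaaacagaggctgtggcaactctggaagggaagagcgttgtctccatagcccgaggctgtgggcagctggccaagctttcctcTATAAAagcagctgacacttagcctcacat
S100a9: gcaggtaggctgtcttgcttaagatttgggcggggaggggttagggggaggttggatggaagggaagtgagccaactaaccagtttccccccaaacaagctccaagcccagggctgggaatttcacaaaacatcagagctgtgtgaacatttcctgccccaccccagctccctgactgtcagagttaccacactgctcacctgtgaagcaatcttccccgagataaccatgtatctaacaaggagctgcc
The S100a8 window held 1 such element close to the start and the S100a9 window 0, and 12.4% of all 32851 windows of this length in the table held at least 1.

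**Figure D3:**
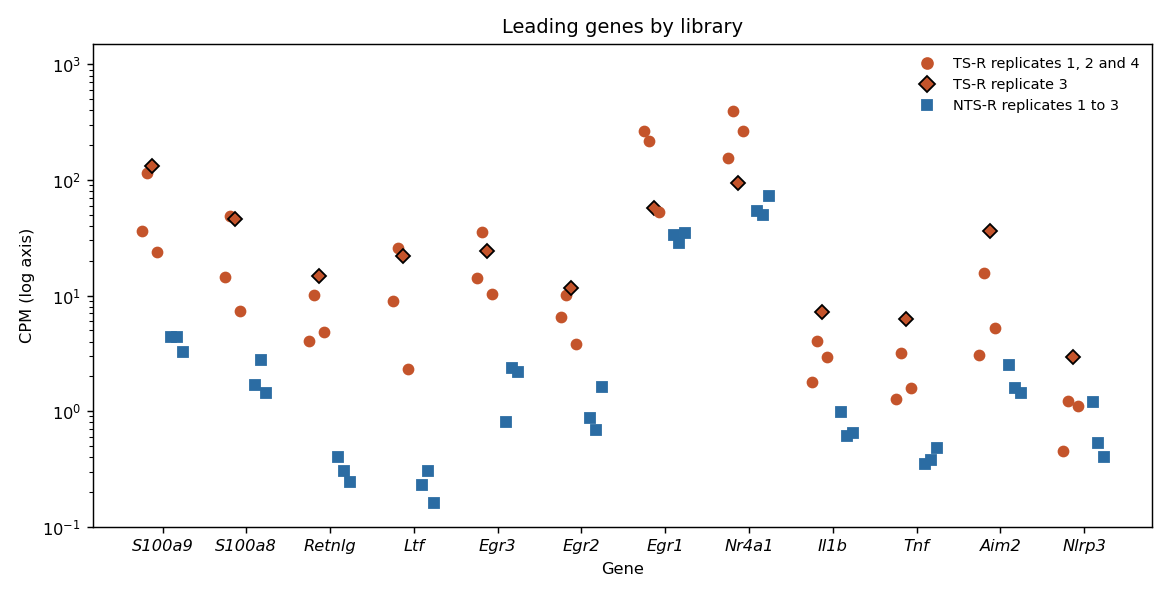
CPM on a log axis of 12 genes in each library of TS-R (orange circles, with replicate 3 as an outlined diamond) and NTS-R (blue squares). The groups are apart for every gene shown except Nlrp3, where NTS-R replicate 1 lies at 1.21 CPM among the TS-R values.

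Immediate early genes of the EGR family were also apart, and their separation did not rest on TS-R replicate 3. These transcription factors are induced within minutes by growth factors, depolarisation or antigen receptor signals. Egr3 was at 14.1, 35.4, 24.2 and 10.4 CPM across the TS-R libraries, against 0.809, 2.36 and 2.18 CPM in NTS-R, and it had the smallest p of all named genes (log2 fold change -3.57, SE 0.56, edgeR FDR 0.105, DESeq2 adjusted p 1.32e-08). Egr2 was at 6.57, 10.1, 11.7 and 3.78 CPM against 0.867, 0.686 and 1.61 CPM, with a fold change of -2.93 on the log2 scale (SE 0.53, edgeR FDR 0.105). All TS-R libraries were above all NTS-R libraries for both. The part of tissue content in these values was not tested. Egr1 was at 265, 217, 57.4 and 52.9 CPM against 33.4, 28.4 and 35.0 CPM, so that TS-R replicates 3 and 4 were much nearer to NTS-R than replicates 1 and 2. Nr4a1, an orphan nuclear receptor induced by cAMP and antigen receptor signals, was at 154, 398, 93.2 and 263 CPM against 54.3, 49.7 and 72.4 CPM (log2 fold change -1.95, SE 0.47, edgeR FDR 0.105). Here TS-R replicate 3 was the lowest of its group. Nr4a1 was 1 of 2 genes that voomWithQualityWeights called after TS-R replicate 3 was left out, the other being the immunoglobulin segment Ighv1-36, named here after its values were seen. Midn, whose midnolin protein carries early gene products to the proteasome, differed less but with little spread: 137, 95.1, 97.2 and 105 CPM against 48.7, 58.7 and 62.4 CPM, with a fold change of -0.94 on the log2 scale (SE 0.18, edgeR FDR 0.105). On the immediate early list 18 of 22 tested genes had negative values. The unadjusted p was under 0.05 for 9 and the groups did not overlap for 8, against 14.1% and 6.83% of all genes. The list median was -0.70, and -0.92 without TS-R replicate 3, where 11 members had an unadjusted p under 0.05, against 8.44% of all genes. Its summed level was 1160, 1820, 851 and 1400 CPM across the TS-R libraries, against 667, 780 and 864 CPM in NTS-R. TS-R replicate 3 thus lay below NTS-R replicate 3 in that level.

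Immediate early genes are textbook targets of signals that act through serum response factor and CREB, so, for Egr2 and Nr4a1, the 250 bases before the start (RefSeq, GRCm38.p6, plus strand) are shown: chr10:67537619-67537868, the start of the transcript Egr2-201 among 5 starts in the table, and chr15:101266596-101266845. Capitals mark the CArG box and the letters TGACG, the core of a cAMP response element, on either strand (CGTCA is its reverse complement).
Egr2: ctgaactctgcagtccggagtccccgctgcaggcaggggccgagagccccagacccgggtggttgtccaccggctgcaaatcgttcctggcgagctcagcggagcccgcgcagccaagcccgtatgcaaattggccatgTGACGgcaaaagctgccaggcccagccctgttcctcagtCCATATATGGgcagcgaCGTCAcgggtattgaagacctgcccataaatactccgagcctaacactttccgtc
Nr4a1: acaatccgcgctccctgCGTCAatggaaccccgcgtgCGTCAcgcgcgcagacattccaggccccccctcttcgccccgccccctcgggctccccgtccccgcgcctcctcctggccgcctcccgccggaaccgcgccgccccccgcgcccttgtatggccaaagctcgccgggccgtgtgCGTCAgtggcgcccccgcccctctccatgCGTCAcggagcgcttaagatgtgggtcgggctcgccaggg
Egr2 held 1 CArG box and 2 TGACG cores, and Nr4a1 held 0 CArG boxes and 4 TGACG cores. In all windows of this length 1.47% held a CArG box and 17.8% held TGACG. These matches describe the sequence and are no measure of binding.

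The Nlrp3 transcript was scarce in every library and did not separate the groups. It was at 0.455, 1.22, 2.94 and 1.10 CPM across the TS-R libraries, against 1.21, 0.534 and 0.403 CPM in NTS-R, and the log2 fold change was -0.97 (SE 0.66, edgeR FDR 0.442), and -0.27 without TS-R replicate 3. NTS-R replicate 1 lay above TS-R replicates 1 and 4. Since the labels do not tie the genotype to donor or recipient, and the fat also holds the recipient's own cells, this level is no check of the labels. Il1b, whose product the inflammasome matures, was apart. It was at 1.79, 4.08, 7.17 and 2.93 CPM across the TS-R libraries, against 0.983, 0.610 and 0.645 CPM in NTS-R, with TS-R replicate 3 highest and replicate 1 lowest. Its log2 fold change was -2.40 (SE 0.49, edgeR FDR 0.105, DESeq2 adjusted p 0.000632), and -1.92 without TS-R replicate 3. Pycard, the adaptor, was at 4.80, 9.56, 22.4 and 6.34 CPM against 4.34, 1.83 and 2.10 CPM, where TS-R replicate 1 and NTS-R replicate 1 nearly met. Aim2, the DNA sensor of another inflammasome, was at 3.04, 15.6, 36.5 and 5.24 CPM against 2.49, 1.60 and 1.45 CPM, and the log2 fold change was -3.02 (SE 0.74, edgeR FDR 0.105), and -2.06 without TS-R replicate 3. Lymphocytes also express Aim2, and its order over the TS-R libraries was that of Glycam1; the part of lymph node tissue in it was not tested. Casp1, caspase-1, gave -0.68 (SE 0.32, edgeR FDR 0.267) and Gsdmd, gasdermin D, -0.68 (SE 0.36, edgeR FDR 0.322), both with overlapping groups.

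Of the 23 genes on the inflammasome and IL-1 list 21 were tested, all but Il1a and Il1r2. Negative values were found for 18, with 11 at an unadjusted p under 0.05, against 14.1% of all genes. The groups did not overlap for 5, against 6.83% of all genes. These were Il1b, Aim2, Pycard, the interleukin-18 receptor chain Il18rap and the interleukin-1 receptor antagonist Il1rn. DESeq2 called 7 members lower, against 7.14% of all genes. The sensors Nlrc4 (-2.35, and -1.34 without TS-R replicate 3), Naip5 (-1.14) and the ATP-gated channel P2rx7 (-0.89) had overlapping groups. Il18 was at 2.81, 6.03, 8.19 and 4.15 CPM across the TS-R libraries, against 3.70, 2.44 and 1.69 CPM in NTS-R. Its receptor chain Il18r1 gave -2.57 and Il18rap -2.42 (SE 0.66, edgeR FDR 0.105), which were -1.86 and -1.74 without TS-R replicate 3. The receptor Il1r1, which receives the interleukin-1 signal, gave -0.07 (SE 0.32, edgeR FDR 0.93), and 0.17 without TS-R replicate 3. The 3 positive members were its accessory chain Il1rap (0.34), the interleukin-18 binding protein Il18bp (0.82, and -0.44 without NTS-R replicate 1) and Txnip, a thioredoxin-binding protein (0.61), all with overlapping groups. The list median of -0.97 became -0.49 without TS-R replicate 3. Then 6 members had an unadjusted p under 0.05, against 8.44% of all genes on the lower side.

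Tnf separated the groups, whereas the list of the NF-kappaB response as a whole did not. Tnf, tumour necrosis factor, was at 1.28, 3.17, 6.24 and 1.59 CPM across the TS-R libraries, against 0.347, 0.381 and 0.484 CPM in NTS-R, with a fold change of -2.92 on the log2 scale (SE 0.60, edgeR FDR 0.105), and -2.27 without TS-R replicate 3. The NTS-R libraries were close to each other and below all of TS-R. There, 3 counts amount to 0.173 to 0.242 CPM, so these Tnf values rest on few counts and the size of the fold change is uncertain. Traf1, a signalling adaptor of TNF receptors, was at 5.91, 40.5, 101 and 13.8 CPM against 5.67, 4.27 and 4.84 CPM, so that TS-R replicate 1 was barely above NTS-R. Relb, a subunit of NF-kappaB, gave -1.08 (SE 0.30, edgeR FDR 0.105), and Zc3h12a, the ribonuclease Regnase-1 that degrades cytokine mRNAs, gave -1.02 (SE 0.27, edgeR FDR 0.105). All 18 members of this list had negative values. The unadjusted p was under 0.05 for 11 and the groups did not overlap for 4, against 14.1% and 6.83% of all genes. The list median was -1.06, and -0.61 without TS-R replicate 3. The summed level was 239, 576, 1140 and 433 CPM across the TS-R libraries, against 346, 305 and 275 CPM in NTS-R, so that TS-R replicate 1 lay below every NTS-R library. Within TS-R the order was that of the lymph node stroma genes (124, 865, 2460 and 571 CPM), whose part in these values was not tested. On the cytokine and chemokine list the median was -0.52, and 16 of 22 tested members were negative. Cxcl16, a chemokine and scavenger receptor of macrophages, gave -1.07 with non-overlapping groups, whereas Cxcl13, the B cell attractant of lymphoid follicles, reached 249 CPM in TS-R replicate 3 and overlapped elsewhere (10.5, 46.7 and 23.6 CPM against 14.7, 4.12 and 3.06 CPM). Without TS-R replicate 3 the median of this list was -0.19.

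T cell genes had large negative values, and within TS-R their levels had the same order as the lymph node stroma genes, whose summed level was 124, 865, 2460 and 571 CPM. Cd3d, a chain of the T cell receptor complex, was at 2.25, 26.4, 61.9 and 7.07 CPM across the TS-R libraries, against 1.73, 1.07 and 0.403 CPM in NTS-R, and the log2 fold change was -4.48 (SE 1.01, edgeR FDR 0.105), and -3.41 without TS-R replicate 3. Lat, the scaffold of receptor signalling, was at 3.21, 38.4, 81.6 and 10.3 CPM against 2.49, 1.30 and 1.29 CPM. In both genes TS-R replicate 1 was only a little above NTS-R replicate 1, and TS-R replicate 3 was highest. Cd247, the zeta chain, separated more evenly, at 7.67, 20.2, 34.0 and 8.05 CPM against 2.31, 4.12 and 1.77 CPM (log2 fold change -2.68, SE 0.53, edgeR FDR 0.105). All 24 members of the T cell list had negative values at an unadjusted p under 0.05, with and without TS-R replicate 3. Over all genes these shares were 14.1% and 8.44%. However, the groups were apart for 6 members, against 6.83% of all genes. The list median was -4.10, and -3.01 without TS-R replicate 3. Its summed level was 66.3, 699, 1560 and 198 CPM across the TS-R libraries, against 75.8, 44.2 and 40.2 CPM in NTS-R. So TS-R replicate 1, the TS-R library without Glycam1, had no more T cell transcript than NTS-R replicate 1. The part of lymph node tissue in the T cell values was not tested further. Among regulators of T helper states, Gata3 of type 2 cells was at 2.16, 3.05, 5.28 and 1.28 CPM against 0.809, 0.305 and 0.564 CPM and Tbx21 of type 1 cells gave -2.93, both with non-overlapping groups, and Icos, a costimulatory receptor, gave -5.13. Without TS-R replicate 3 Tbx21 gave -1.87 and Icos -3.32. Foxp3 of regulatory T cells was at 0.171, 5.85, 8.95 and 1.10 CPM in TS-R against 0.462, 0.229 and 0.161 CPM.

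B cell genes had that order within TS-R too. Ighd, the IgD heavy chain of naive B cells, was at 2.59, 126, 336 and 43.0 CPM across the TS-R libraries, against 5.32, 1.07 and 0.887 CPM in NTS-R. Cd79b of the B cell receptor was at 5.32, 79.8, 279 and 27.2 CPM against 8.15, 2.36 and 1.85 CPM. For both, TS-R replicate 1 was below NTS-R replicate 1. All 18 genes of the B cell list were negative at an unadjusted p under 0.05, 17 of them also without TS-R replicate 3. Yet for 0 of 18 were the groups apart. The same shares of all genes were 14.1%, 8.44% and 6.83%. The list median was -4.89, and -3.09 without that library. Lymph node stroma and venule genes had a median of -4.57, and -1.83 without TS-R replicate 3. Of these, 1 of 15 was separated, near the share of 6.83% over all genes. That gene was Cd209b, a lectin of lymph node sinus and marginal zone macrophages, at 2.64, 100, 142 and 60.5 CPM against 1.79, 1.83 and 1.13 CPM. Stab2, a scavenger receptor of sinusoidal endothelium, was at 0.938, 9.44, 14.7 and 21.9 CPM against 0.347, 0.305 and 0.0806 CPM, highest in TS-R replicate 4 rather than 3.

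Plasma cell genes had the same order within TS-R in their mean log2 level, with replicate 1 lowest and replicate 3 highest, but replicate 1 was not without immunoglobulin transcripts. In their summed level the order differed, with replicate 4 above replicate 2. It was 1440, 4940, 37300 and 6160 CPM across the TS-R libraries, against 532, 1310 and 1630 CPM in NTS-R. Igha, the heavy chain of IgA, was at 415, 1030, 1900 and 1800 CPM across the TS-R libraries, against 4.51, 338 and 372 CPM in NTS-R. The groups did not overlap, but NTS-R replicate 1 was far below replicates 2 and 3, and the fitted log2 fold change was -2.43 with an SE of 1.64 (edgeR FDR 0.439). Igkc, the kappa light chain, was at 576, 1880, 17100 and 2180 CPM against 149, 418 and 482 CPM. Ighg2b, the IgG2b heavy chain, reached 4760 CPM in TS-R replicate 3 and overlapped in the other libraries (36.9, 386 and 520 CPM against 63.7, 43.2 and 99.7 CPM). Immunoglobulin genes share reads, so these levels are less certain than others. All 16 tested members of the plasma cell list were negative, 9 at an unadjusted p under 0.05, and 0 of them without TS-R replicate 3. The same shares of all genes were 14.1% and 8.44%. The list median was -2.51, and -1.33 without that library.

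Dendritic cell and MHC class II genes had a median of -1.61. Of 18 members 15 were negative at an unadjusted p under 0.05 and 4 were separated, against 14.1% and 6.83% of all genes. Without TS-R replicate 3 the median was -1.03 and 9 members had an unadjusted p under 0.05, against 8.44% of all genes. Siglech of plasmacytoid dendritic cells was at 0.512, 9.75, 18.0 and 7.44 CPM across the TS-R libraries, against 0.173, 0.229 and 0.484 CPM in NTS-R. Xcr1, the chemokine receptor of cross-presenting dendritic cells, was at 3.84, 4.21 and 3.96 CPM in TS-R replicates 2 to 4, at 0.796 CPM in replicate 1 and at 1.10, 0.839 and 0.403 CPM in NTS-R. Macrophage and monocyte genes differed far less. Their list median was -0.51, and -0.41 without TS-R replicate 3. An unadjusted p under 0.05 was reached by 7 of 22, against 14.1% of all genes, and 1 was separated, against 6.83%. That gene was Cx3cr1, the fractalkine receptor, at 10.4, 12.2, 15.4 and 6.28 CPM against 4.91, 2.36 and 1.94 CPM (log2 fold change -1.84, SE 0.51, edgeR FDR 0.105). Csf1r, the receptor on which macrophages depend, was at 48.1, 82.9, 157 and 103 CPM against 53.1, 38.7 and 34.1 CPM. Ccr2, the receptor of recruited monocytes, gave -0.86 (SE 0.29, edgeR FDR 0.132).

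Cell division genes were lower with a size that rested on TS-R replicate 3. Mki67, the proliferation marker, was at 16.5, 30.0, 211 and 13.9 CPM across the TS-R libraries, against 10.3, 2.90 and 6.53 CPM in NTS-R, and Top2a, the topoisomerase of dividing cells, at 15.6, 23.5, 166 and 13.2 CPM against 9.88, 4.58 and 5.97 CPM. The groups did not overlap in either gene, and in both NTS-R replicate 1 came closest to TS-R. All 19 members of the list were negative. The unadjusted p was under 0.05 for 17 and the groups did not overlap for 9, against 14.1% and 6.83% of all genes. The list median was -2.50, and -0.90 without TS-R replicate 3, where 12 members had an unadjusted p under 0.05, against 8.44% of all genes.

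Genes of sympathetic neurons were high in 3 of the 4 TS-R libraries. Ngfr, a neurotrophin receptor of neurons and Schwann cells, was at 21.1, 14.7, 11.2 and 1.83 CPM across the TS-R libraries, against 1.33, 1.37 and 0.968 CPM in NTS-R, and the log2 fold change was -3.31 (SE 0.65, edgeR FDR 0.105). In TS-R replicate 4 it was far below the other TS-R libraries, though above NTS-R. Npy, the cotransmitter neuropeptide Y, was at 46.1, 11.9, 6.63 and 0.183 CPM against 0.116, 1.22 and 0.242 CPM, and Prph, the intermediate filament of peripheral neurons, at 59.5, 16.6, 10.5 and 0.914 CPM against 0.520, 0.992 and 0.645 CPM, so that TS-R replicate 4 lay among NTS-R. Rtn1, a reticulon of neurons and dendritic cells, was apart in all libraries, at 18.8, 11.7, 11.8 and 6.10 CPM against 2.54, 1.98 and 2.34 CPM (log2 fold change -2.40, SE 0.42, edgeR FDR 0.105). Of 18 genes on the nerve and Schwann cell list 15 were negative. An unadjusted p under 0.05 was reached by 9 on the lower side and 1 on the higher side, against 14.1% and 5.59% of all genes. The groups were apart for 1 member in each direction, Ngfr and, higher in NTS-R, the myelin gene Pmp22, the latter named here after its values were seen. This is near the share over all genes, 6.83% lower and 5.7% higher. The median was -1.39, -0.53 without TS-R replicate 3 and -0.43 without replicate 1. Neuronal cell bodies of sympathetic ganglia carry these transcripts; whether a ganglion lay in the tissue of TS-R replicates 1 to 3 was not tested.

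**Figure D4:**
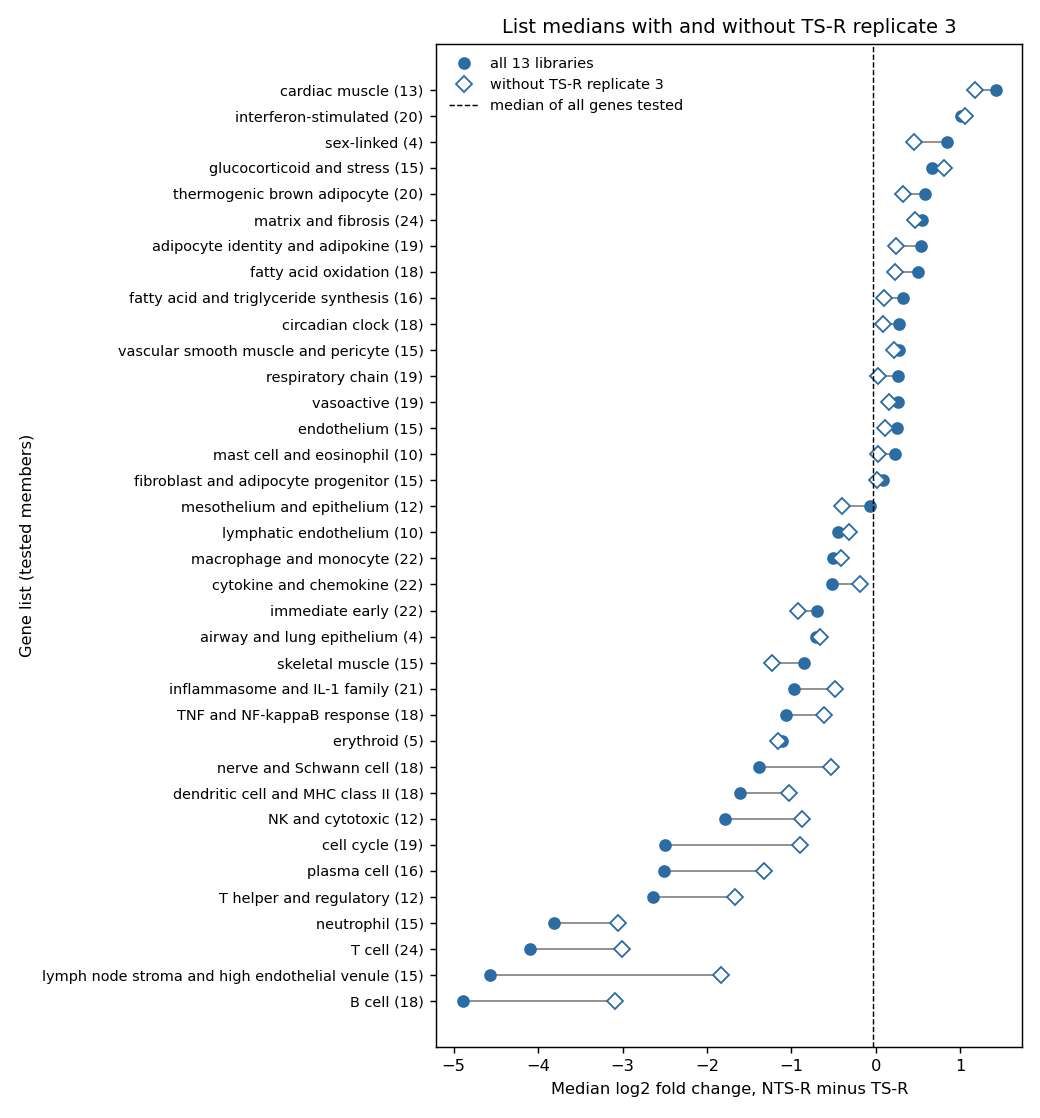
Median fitted log2 fold change (NTS-R minus TS-R) of each gene list, with the number of tested members in brackets, from all libraries (filled circles) and without TS-R replicate 3 (open diamonds); the dashed line is the median of all 17270 genes. The B cell, lymph node stroma and cell cycle medians move most when that library is left out, and the neutrophil median stays at -3.05.

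On the other side of the comparison, most adipocyte and thermogenic genes had positive values. Ebf2, a transcription factor that commits precursors to brown fat, was at 26.4, 31.1, 13.8 and 39.9 CPM across the TS-R libraries, against 46.6, 68.0 and 83.9 CPM in NTS-R (log2 fold change 1.25, SE 0.34, edgeR FDR 0.105). Its partner Prdm16 was at 18.3, 14.2, 7.25 and 14.3 CPM against 20.9, 23.6 and 41.9 CPM (log2 fold change 1.09, SE 0.36, edgeR FDR 0.133). TS-R replicate 3 was lowest for both, and NTS-R replicate 3 highest. The Prdm16 groups were apart with TMM scaling and overlapped on library totals. Of 20 tested thermogenic genes 15 were positive. An unadjusted p under 0.05 went with 4 positive members and 1 negative one, against 5.59% and 14.1% of all genes. The negative one was Epsti1, which interferon also induces and which was at 88.2 CPM in TS-R replicate 3. The list median was 0.58, 0.32 without TS-R replicate 3 and also 0.32 on library totals. On library totals the median of all genes moved too, from -0.03 to -0.33. Adipoq gave 0.78 (SE 0.35, edgeR FDR 0.248), and the adipocyte identity list had a median of 0.53, or 0.24 without TS-R replicate 3. Of its 19 members 1 was higher at an unadjusted p under 0.05, against 5.59% of all genes, and 0 separated the groups. TS-R replicate 1 had the highest summed level of this list, 27200 CPM, against 25000, 26900 and 25500 CPM in NTS-R. Fatty acid oxidation genes had a median of 0.50, or 0.23 without it. Slc25a20, the carnitine carrier of the mitochondrial membrane, was at 180, 195, 70.7 and 300.0 CPM against 309, 359 and 364 CPM, and Acadl and Hadh, enzymes of the oxidation cycle, were also apart with TMM; these 3 overlapped on library totals. For the respiratory chain genes the median was 0.26, and it was 0.03 without TS-R replicate 3 and -0.03 on library totals. Over all genes these medians were -0.03, 0.01 and -0.33.

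Matrix genes were higher in NTS-R by a similar amount that was less tied to TS-R replicate 3. Postn, the matricellular protein periostin, was at 96.5, 124, 84.8 and 123 CPM across the TS-R libraries, against 166, 137 and 215 CPM in NTS-R (log2 fold change 0.69, SE 0.19, edgeR FDR 0.109). Ccn2, connective tissue growth factor, was at 12.3, 19.6, 9.68 and 25.8 CPM against 36.0, 35.8 and 48.3 CPM (log2 fold change 1.25, SE 0.37, edgeR FDR 0.11). Loxl2, which cross-links collagen, gave 0.89 and the collagen VI chain Col6a3 0.70. The groups were apart in these 4 genes with TMM, and on library totals Postn, Loxl2 and Col6a3 overlapped. Of 24 members 23 were positive, 8 at an unadjusted p under 0.05 and 5 with non-overlapping groups. Of all genes, 5.59% were higher at that p and 5.7% were apart on that side. The list median was 0.55, 0.46 without TS-R replicate 3 and 0.28 on library totals, against -0.03, 0.01 and -0.33 over all genes. Smooth muscle genes had a median of 0.27, and -0.02 on library totals, against -0.03 and -0.33 over all genes. Among them Acta2, smooth muscle actin, was at 59.2, 96.1, 41.9 and 81.0 CPM against 118, 139 and 113 CPM, apart with TMM and overlapping on library totals.

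Cardiac muscle genes, of which myocardium and the sleeve of heart muscle around pulmonary veins are the usual sources, had the highest list median at 1.42, and 1.17 without TS-R replicate 3. Sln, which encodes the calcium pump inhibitor sarcolipin, was at 28.8, 56.0, 13.9 and 71.2 CPM across the TS-R libraries, against 133, 121 and 161 CPM in NTS-R (log2 fold change 1.70, SE 0.42, edgeR FDR 0.105). Myl7, the atrial myosin light chain, was at 116, 124, 31.0 and 139 CPM against 289, 204 and 343 CPM. Both groups of libraries held these transcripts, TS-R replicate 3 at the lowest level. Pln, phospholamban of heart and smooth muscle, which was not on this list, was at 86.3 CPM in NTS-R replicate 3 and between 3.25 and 21.1 CPM elsewhere. Of 13 members 12 were positive. With and without TS-R replicate 3, 9 members had an unadjusted p under 0.05, against 5.59% and 5.42% of all genes on that side. The summed level was 1460, 1120, 278 and 1230 CPM across the TS-R libraries, against 2290, 1530 and 3580 CPM in NTS-R. How much heart tissue each dissection held was not tested.

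Stress and glucocorticoid genes had a list median of 0.66, which was 0.81 without TS-R replicate 3 and 0.40 on library totals. Over all genes these medians were -0.03, 0.01 and -0.33. All 15 members of the list were positive, 4 at an unadjusted p under 0.05 and 3 with non-overlapping groups. Of all genes, 5.59% were higher at that p and 5.7% were apart on that side. The summed level of 4870 CPM in TS-R replicate 4 was above NTS-R (3830, 4250 and 4140 CPM), and the other TS-R libraries were below it (2110, 2170 and 1030 CPM). Fkbp5, a chaperone gene that glucocorticoids induce, was at 48.9, 44.5, 43.2 and 40.1 CPM across the TS-R libraries, against 108, 61.0 and 77.4 CPM in NTS-R (log2 fold change 0.90, SE 0.31, edgeR FDR 0.148). Tsc22d3, the glucocorticoid-induced leucine zipper, was at 70.1, 81.5, 117 and 108 CPM against 171, 145 and 131 CPM. The groups were apart in both with TMM and overlapped on library totals. Cdkn1a, the cell cycle inhibitor p21, was at 53.6, 31.7, 30.1 and 90.5 CPM against 262, 85.3 and 87.2 CPM, highest in NTS-R replicate 1. Hspb1, a small heat shock protein, gave 1.28 (SE 0.45, edgeR FDR 0.148).

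Interferon-stimulated genes had a median of 1.01 that came from 1 library. Igtp, an interferon-inducible GTPase, was at 66.5, 65.3, 66.2 and 81.4 CPM across the TS-R libraries, against 839, 40.0 and 46.0 CPM in NTS-R. Without NTS-R replicate 1 its log2 fold change turned from 2.14 to -0.70, and the list median from 1.01 to -0.70. The summed level of the 20 genes was 4050 CPM in NTS-R replicate 1, 409 and 431 CPM in replicates 2 and 3, and 575 to 711 CPM in TS-R. In WTS-R, replicate 1 also stood out, with Igtp at 473 CPM against 23.4 and 109 CPM. Clock genes also varied within groups: Per2, a repressor of the molecular clock, was at 12.7, 29.1, 14.4 and 69.3 CPM across the TS-R libraries, against 42.3, 105 and 127 CPM in NTS-R. The time of day of collection is not stated in the sources used here.

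Gpx8 and Zfp366, which had the smallest p on the higher side, belonged to none of the lists. Gpx8, a glutathione peroxidase of the endoplasmic reticulum, was at 36.4, 41.5, 31.8 and 65.5 CPM across the TS-R libraries, against 99.0, 108 and 142 CPM in NTS-R (log2 fold change 1.41, SE 0.24, edgeR FDR 0.105, DESeq2 adjusted p 6.24e-05). Zfp366, a zinc finger corepressor known from dendritic cells, was at 14.5, 23.3, 14.7 and 23.6 CPM against 40.5, 42.3 and 77.1 CPM (log2 fold change 1.49, SE 0.28, edgeR FDR 0.105). Both were apart under TMM and on library totals, and without TS-R replicate 3 their values were 1.30 and 1.41. Mc5r, a melanocortin receptor, had a gap of over 2-fold on the scale of CPM + 0.5, at 2.10, 2.01, 2.77 and 3.35 CPM against 9.13, 7.32 and 9.84 CPM. Plpp3, a phosphatase that degrades lysophosphatidic acid, gave 1.17 (SE 0.28) and Hacd2, an enzyme of fatty acid elongation, 1.10 (SE 0.26), both at an edgeR FDR of 0.105. The mitochondrial ribosomal RNA mt-Rnr1 was at 458, 947, 940 and 1860 CPM against 2590, 3470 and 9850 CPM (log2 fold change 2.33, SE 0.54, edgeR FDR 0.105). It moved with the share of mitochondrial counts given above, lowest in TS-R replicate 1 and highest in NTS-R replicate 3. On the lower side, genes outside the lists with small p included Grap, an adaptor of lymphocyte receptor signalling (-1.85, SE 0.35), Hid1, a protein of dense core granule sorting (-1.60, SE 0.30), and the ubiquitin ligase Rnf122 (-1.66, SE 0.33), each at an edgeR FDR of 0.105.

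The last comparison asked whether the Nlrp3 difference seen with diabetic donors departed from the same difference with non-diabetic donors, NS-R against WTS-R. The interaction, (NTS-R minus TS-R) minus (NS-R minus WTS-R), was called for 0 genes by edgeR (0%), with a lowest FDR of 0.0823. Unadjusted p-values under 0.05 went with 2353 negative (13.6%) and 812 positive values (4.7%), and DESeq2 called 1086 genes and voomWithQualityWeights 1872. The genes with the lowest FDR included Egr3 and Egr2, which differed in opposite directions. Egr3 was at 5.84, 3.65 and 10.5 CPM across WTS-R, against 34.4, 18.8 and 30.3 CPM in NS-R, higher in every NS-R library, and its interaction was -5.63 (SE 0.77, edgeR FDR 0.0823). Egr2 was at 1.22, 1.51 and 3.79 CPM across WTS-R, against 10.8, 14.1 and 8.66 CPM in NS-R, with an interaction of -5.29 (SE 0.74, edgeR FDR 0.0823). Thus both transcripts were high in TS-R and NS-R and low in WTS-R and NTS-R, although TS-R replicate 4 was level with the highest WTS-R library. Without TS-R replicate 3 the edgeR FDR of both was 0.0475, and 5 genes passed: Egr3, Egr2, Hid1, and Jun and Ltk, the last 2 named here after their values were seen. Both also passed without TS-R replicate 1 (FDR 0.0348) or replicate 4 (FDR 0.0185), and with a term for the female libraries (0.0381 for Egr3 and 0.0405 for Egr2). They did not without TS-R replicate 2 (0.183 and 0.194) or without any 1 of the NTS-R libraries (0.244 to 0.281). Without NS-R replicate 3 edgeR called 298 genes, with an FDR of 0.00836 for Egr3 and 0.00749 for Egr2. Leaving out another library of WTS-R or NS-R gave 0 calls, with an FDR of 0.0687 to 0.298 for these genes. Il1b was at 0.513, 0.566 and 0.900 CPM across WTS-R, against 1.86, 3.18 and 2.11 CPM in NS-R, an interaction of -4.24 (SE 0.71, edgeR FDR 0.115). For S100a9 the interaction was -4.91 (SE 0.95, edgeR FDR 0.115), with WTS-R at 1.73, 5.79 and 1.29 CPM and NS-R at 2.91, 5.2 and 6.00 CPM. Airway transcripts were present in NS-R replicates 1 and 2, and NS-R replicate 3 was female (Xist 530 CPM); their part in these values was not tested.

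**Figure D5:**
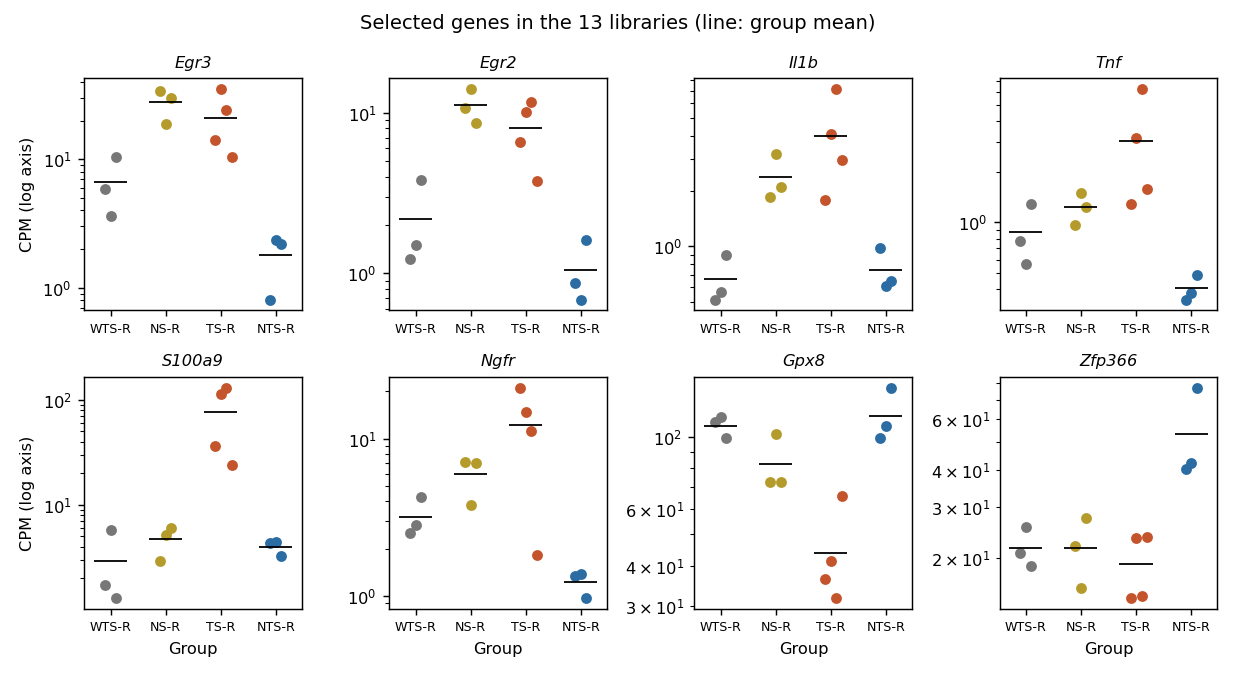
CPM on a log axis of 8 genes in all 13 libraries by group, with a line at each group's mean. Group means of Egr3, Egr2 and Il1b are high in NS-R and TS-R and low in WTS-R and NTS-R, S100a9 is high in TS-R alone, and Gpx8 is lowest in TS-R.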

How the data were processed

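Per the labels' protocols, RNA of perivascular adipose tissue was extracted with TRIzol, its integrity was checked, and paired-end mRNA libraries were made with an ABclonal kit. The authors deposited 1 table of whole-number counts per gene for 13 libraries, made with HISAT2 and featureCounts per the submitters' processing notes. The sources used here state no version, genome build, annotation or strand setting, so antisense overlaps and reads shared by immunoglobulin or haemoglobin genes are uncertain. Gene identifiers were paired with symbols for 33302 of 34013 genes. Total counts ran from 14216706 to 29800052 in the 7 libraries compared, and 3 counts corresponded to 0.0847 to 0.242 CPM there.

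Groups followed the sample titles. Genes passing edgeR's filterByExpr (17270) were fitted with edgeR 4.0.16 (TMM factors, quasi-likelihood test, 4 groups in 1 fit, Benjamini-Hochberg adjustment over all genes, threshold 0.05) in R 4.3.3. CPM used TMM-scaled library sizes, and gaps between groups used log2(CPM + 0.5). Alternatives were DESeq2 1.42.0, limma 3.58.1 voomWithQualityWeights, other scalings and filters, a replicate block, a term for the female libraries and leaving out each library in turn. The script was tested on simulated data. Named genes were Nlrp3 and the inflammasome list, the 12 genes per direction with the smallest p and the 8 with the widest gap (mean CPM of 5 or more), up to 5 genes per list by p, and markers of other tissue. The members and lists were chosen with earlier results of these data known.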

Additional observations from a re-analysis of the deposited data

Results flagged for a closer look

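For 158 sets of 4 TS-R values (gene list levels and named genes), the distance of the most extreme library to its nearest neighbour was divided by the range of the group. A ratio above Dixon's 95% critical value marks a library far from the others. Chance marks about 1 in 20 such groups, and 7 of 158 were marked here. TS-R replicate 3 was the low library for the vascular smooth muscle and pericyte list (ratio 0.905), for the circadian clock list (0.831) and for the cardiac genes Myl7 (0.878) and Actc1, cardiac actin (0.88). It was also the low library on the sex-linked list (0.933), whose tested members are Y-linked. Xcr1 had a ratio of 0.937 with TS-R replicate 1 low, and Igtp 0.914 with TS-R replicate 4 high at 81.4 CPM against 65.3 to 66.5 CPM.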

How the results depend on the processing

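edgeR's 0 calls in both directions stood with DESeq2 size factors, robust dispersion, a mean CPM of 1 or more, the 7 libraries alone, a term for the female libraries and library totals, and on leaving out TS-R replicate 2 or 3 or any library of the other 3 groups. Calls lower and higher numbered 1233 and 196 with DESeq2, 1258 and 380 with voomWithQualityWeights, and 388 and 16 with no filter on low counts. Leaving out single libraries gave 0 to 981 lower and 0 to 160 higher calls, all from leaving out TS-R replicate 1 or 4. Without TS-R replicate 3, voomWithQualityWeights called 2 lower and 0 higher, and DESeq2 459 and 77. Lower genes at an unadjusted p under 0.05 numbered 1425 to 2808 on leaving out single libraries, lowest without TS-R replicate 3, where voomWithQualityWeights gave 1526 and DESeq2 1580. Higher genes numbered 472 to 1441, lowest without NTS-R replicate 3, 478 with the 7 libraries alone and 2001 with voomWithQualityWeights. Library totals, chosen after seeing the data like the fits that change tool and library together or leave out a WTS-R or NS-R library, gave 4386 lower and 213 higher. The interaction was called for 1086 genes by DESeq2, 1872 by voomWithQualityWeights, 92 with no filter, 21 with a term for the female libraries, 0 to 517 on leaving out single libraries (517, 5 and 71 without TS-R replicates 1, 3 and 4, 298 without NS-R replicate 3, and 0 without each other), and, without TS-R replicate 3, 60 by voomWithQualityWeights and 725 by DESeq2. With the replicate block, edgeR called 65 lower, 11 higher and 19 interaction genes. Same-numbered TS-R and NTS-R libraries correlated at 0.00, -0.05 and 0.12 in their deviations, and not every library correlated best with its own number. With so few libraries, which also differ in tissue content, these correlations cannot decide whether the numbers pair the samples. Of 3027 values of 122 named genes 11 changed sign. Without NTS-R replicate 1 they were Igtp -0.70, Irgm2 -0.41, Gbp2 -0.71 and Il18bp -0.44. Myh4 was 1.14 with voomWithQualityWeights, 1.47 without TS-R replicate 1 and 0.27 with voomWithQualityWeights without TS-R replicate 3. Il1r1 was 0.00 with a term for the female libraries, 0.17 without TS-R replicate 3 (0.14 by DESeq2) and 0.13 without NTS-R replicate 2. Over the fits that leave out 1 library, the other extreme was 2.67 for Igtp, 2.20 for Irgm2, 2.09 for Gbp2, 1.21 for Il18bp, -3.63 for Myh4 and -0.37 for Il1r1. The median of 11 lists changed sign in at least 1 alternative. The cause was not tested. Genes near 1 CPM rest on few counts in libraries of 14216706 counts or more.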
